A study of Mus musculus with 4 samples.

Results

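Collagens are the triple-helical proteins of the extracellular matrix, and the genes described here encode every collagen chain on the array except those of collagen IV, the collagen of basement membranes. They were taken by symbol from the platform's gene table, as the name Col followed by a chain number, with Col4a1 to Col4a6 left out. This gave 70 probe sets of 36 genes, among 34945 probe sets of 18193 genes with 1 symbol. Transcripts were measured on 4 arrays of laser-captured structures from fetal kidneys of wild-type CD-1 mice at E15.5 (Theiler stage 23). One structure, with 1 array (numbered 3), was the cortical collecting duct, which derives from the ureteric bud and drains urine. The other, with 3 arrays (numbered 1 to 3), was the loop of Henle anlage, a part of the young nephron from which the loop forms. Every array measured RNA pooled over some 50 sections of 5 kidneys, of unknown sex, after 2 rounds of amplification. The labels do not say whether the pools shared kidneys, so every p-value measures only the spread between these pools, which may be technical.

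Fibrillar collagens (types I, II, III, V, XI, XXIV and XXVII) are secreted as procollagens, trimmed, and laid down as cross-linked fibrils, mostly by fibroblasts and other mesenchymal cells. Fibril-associated collagens decorate those fibrils, collagen VI forms beaded microfilaments around cells, and collagens XV and XVIII sit in or beside basement membranes and carry glycosaminoglycan chains. In the fetal kidney the tubules are epithelial and are wrapped in basement membrane, while the interstitium between them holds the stromal cells that make most fibrillar collagen. Laser capture cuts a tubule out of a section and can take adjoining cells with it.

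Values are log2(signal + 109.6) after quantile normalization of the arrays, for the probe set of each gene with the highest mean. Of the 36 genes, 28 had a mean log2 value of at least 8.416 and were tested. Of 8 tested collecting duct markers, 7 stood above all 3 anlage arrays in the duct, beside 17.3% of all tested genes of the array. Of 8 loop of Henle markers, 8 stood below all 3, beside 24.3%. By these markers anlage array 2 stood apart from the other anlage arrays. Summed collecting duct marker signal was 103100 in the duct, against 10814, 45130 and 7322 in anlage arrays 1, 2 and 3, and summed loop marker signal was 2451 in the duct, against 87805, 20422 and 69674. Calb1, a calcium-binding protein of the distal nephron and duct, was 13.87 in the duct and 14.86 in anlage array 2. It was the brightest duct marker of that array and weighed heavily in its sum. The median log2 value of the 8 tested duct markers was 13.31 in the duct, against 10.10, 11.13 and 9.37 in anlage arrays 1, 2 and 3. Over the 12642 genes tested, Pearson's r between anlage arrays was lowest for arrays 1 and 2 (0.813) and highest for 2 and 3 (0.915), while the collecting duct array gave 0.902, 0.868 and 0.901 with anlage arrays 1, 2 and 3. Gapdh probes near the 3' end read 12.0 times those near the 5' end in the collecting duct, against 10.3, 54.1 and 26.0 times in anlage arrays 1, 2 and 3, a ratio that climbs when transcripts are short. The beta-actin ratios differed less, at 3.6 in the collecting duct and 3.1, 6.4 and 5.4 in the anlage arrays, with array 3 near array 2.

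Transcripts of Col1a1, Col1a2, Col3a1, Col5a1, Col5a2, Col6a1, Col6a2 and Col6a3, chains of interstitial collagens, lay above the filter on all 4 arrays, and no collagen gene outside collagen IV passed the test of a difference between them. limma called 0 of the 28 genes at an adjusted p under 0.05, where it called 0% of all genes. At an unadjusted p under 0.05 it had 0 of 28, beside 3.41% of all genes, and the smallest unadjusted p was 0.108, for Col18a1. The differences, collecting duct minus anlage, lay between −1.55 and 1.03 on the log2 scale, with 9 positive and 19 (67.9%) negative, beside 54.9% negative among all genes. Their median was −0.24, beside −0.06 for all genes tested. The split was 6 positive and 22 negative with arrays scaled to a common median, where the median of all genes was −0.24, and 11 and 17 with the values as deposited. Without anlage array 3 it turned to 17 positive and 11 negative, with a median of 0.21, and without anlage array 1 the median was −0.47. Without anlage array 2 it was −0.24, with 0 of 26 tested genes called. In captured tissue, fewer cells of a type and less RNA per cell cannot be told apart.

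**Figure D1:**
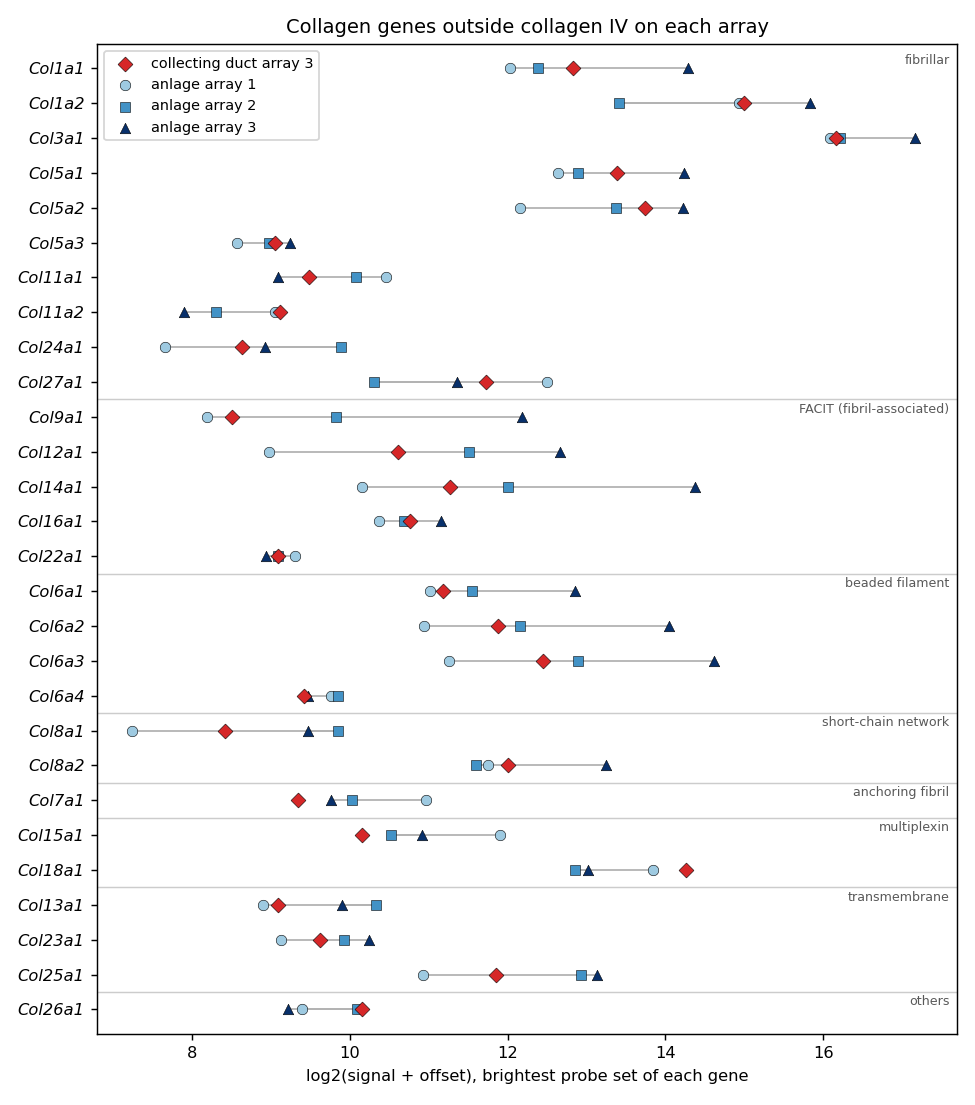
Log2(signal + 109.6) of the 28 tested collagen genes on each array, 1 row per gene, ordered by structural class; diamonds are the collecting duct array, the other symbols the 3 anlage arrays, and the grey line joins the anlage values. For 22 of the 28 genes the diamond lies within the anlage line, and for 16 the triangle of anlage array 3 is the highest point.

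The collecting duct array lay within the range of the 3 anlage arrays for 22 of the 28 genes. It lay above all 3 for 3 genes (Col11a2, Col18a1 and Col26a1), or 10.7%, beside 17.3% of all genes tested, and below all 3 for 3 genes (Col6a4, Col7a1 and Col15a1), beside 24.3%. Together 21.4% of the collagen genes lay outside the anlage range, beside 41.6% of all genes. These counts rest on single arrays: without anlage array 1, 15 genes (53.6%) lay below both other anlage arrays, beside 47.5% of all genes. Without anlage array 3, 10 of the 28 genes lay above both others, beside 22.8% of all genes, and 5 (17.9%) lay below both, beside 28.5%.

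Types III and I are the main fibril formers of loose mesenchyme. The upstream regions of Col3a1 and Col1a2 are shown with that of Col18a1, the tested gene with the largest positive difference. They are the 250 bases before the first listed RefSeq start of each gene in build GRCm38.p6, read along the gene: chr1:45311288-45311537 (plus strand) for Col3a1, chr6:4505368-4505617 (plus strand) for Col1a2 and chr10:77166531-77166780 (minus strand) for Col18a1, which has 2 listed starts. Capitals mark the letters CCAAT or TATAAA, searched on both strands, so that ATTGG is CCAAT on the other strand.

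Col3a1: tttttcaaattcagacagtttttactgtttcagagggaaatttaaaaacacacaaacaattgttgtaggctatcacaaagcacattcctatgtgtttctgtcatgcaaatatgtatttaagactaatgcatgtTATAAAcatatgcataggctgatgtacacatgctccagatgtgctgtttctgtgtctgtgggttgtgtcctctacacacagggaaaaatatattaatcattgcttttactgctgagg

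Col1a2: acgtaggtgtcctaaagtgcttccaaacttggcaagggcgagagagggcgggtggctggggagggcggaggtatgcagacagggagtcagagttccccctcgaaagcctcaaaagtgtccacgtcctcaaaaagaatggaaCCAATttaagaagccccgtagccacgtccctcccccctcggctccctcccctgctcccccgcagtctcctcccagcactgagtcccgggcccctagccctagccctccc

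Col18a1: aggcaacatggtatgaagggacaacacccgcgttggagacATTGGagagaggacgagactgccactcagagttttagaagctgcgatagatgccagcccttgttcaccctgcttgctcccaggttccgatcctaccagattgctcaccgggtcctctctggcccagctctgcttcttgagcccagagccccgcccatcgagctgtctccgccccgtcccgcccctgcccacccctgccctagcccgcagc

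Col3a1 held TATAAA from 117 bases before the start, Col1a2 held CCAAT from 109 bases before it, and Col18a1 held ATTGG from 210 bases before it. CCAAT or its complement stood in 9 of 25 such windows of 22 tested collagen genes (36.0%), beside 33.8% of the 32851 windows in the RefSeq table. TATAAA or its complement stood in 3 of the 25 (12.0%), beside 12.4%. Both shares were thus close to those of all windows, and a match describes letters, not a site.

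Col3a1, the single chain of type III collagen, stood at 16.17 in the collecting duct array and at 16.08, 16.21 and 17.16 in anlage arrays 1, 2 and 3. The collecting duct array fell among anlage arrays 1 and 2, and anlage array 3 was the highest. The difference was −0.32 ± 0.46 (SE), with a 95% interval of −1.44 to 0.81 (limma, unadjusted p = 0.515, adjusted p = 0.9999).

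Col1a1 and Col1a2 encode the alpha-1 and alpha-2 chains that assemble into type I collagen. Col1a1 stood at 12.83 in the collecting duct and at 12.03, 12.38 and 14.28 in the anlage arrays, a difference of −0.07 ± 0.92 (SE). Col1a2 stood at 14.99 in the collecting duct and at 14.94, 13.41 and 15.83 in the anlage arrays, a difference of 0.27 ± 0.88. In both genes anlage array 3 was the highest of the 4 arrays, while the lowest was anlage array 1 for Col1a1 and anlage array 2 for Col1a2.

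Collagen V joins type I fibrils and limits their width. Col5a1 stood at 13.39 in the collecting duct and at 12.63, 12.89 and 14.23 in the anlage arrays, a difference of 0.14 ± 0.71 (SE). Col5a2 stood at 13.74 in the collecting duct and at 12.16, 13.37 and 14.23 in the anlage arrays, a difference of 0.49 ± 0.81. By their brightest probe sets, both chains had the collecting duct array below anlage array 3 only. Another probe set of each above the filter had it below anlage array 2 as well. For Col5a1 that probe set was 10.64 in the collecting duct and 10.54, 11.31 and 11.55 in the anlage arrays. For Col5a2 it was 11.44 in the collecting duct and 8.89, 11.45 and 12.74 in the anlage arrays, nearly level with anlage array 2. Col5a3, a minor type V chain, had the array order of those brightest probe sets with a narrower range. It was 9.05 in the collecting duct and 8.57 to 9.24 in the anlage.

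The genes of collagens XI, XXIV and XXVII did not share that order. Col11a1, a chain best known from cartilage fibrils, was 9.48 in the collecting duct and 10.46, 10.08 and 9.09 in the anlage arrays, so that anlage array 3 was the lowest. Its partner chain Col11a2 was 9.12 in the collecting duct and 9.06, 8.30 and 7.90 in the anlage arrays, a difference of 0.70 ± 0.62 (SE) with a 95% interval of −0.82 to 2.21. Col24a1 and Col27a1 differed by −0.19 ± 0.88 and 0.34 ± 0.88. Of the 10 tested fibrillar genes, 6 differences were positive and 4 negative, with a median of 0.13.

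**Figure D2:**
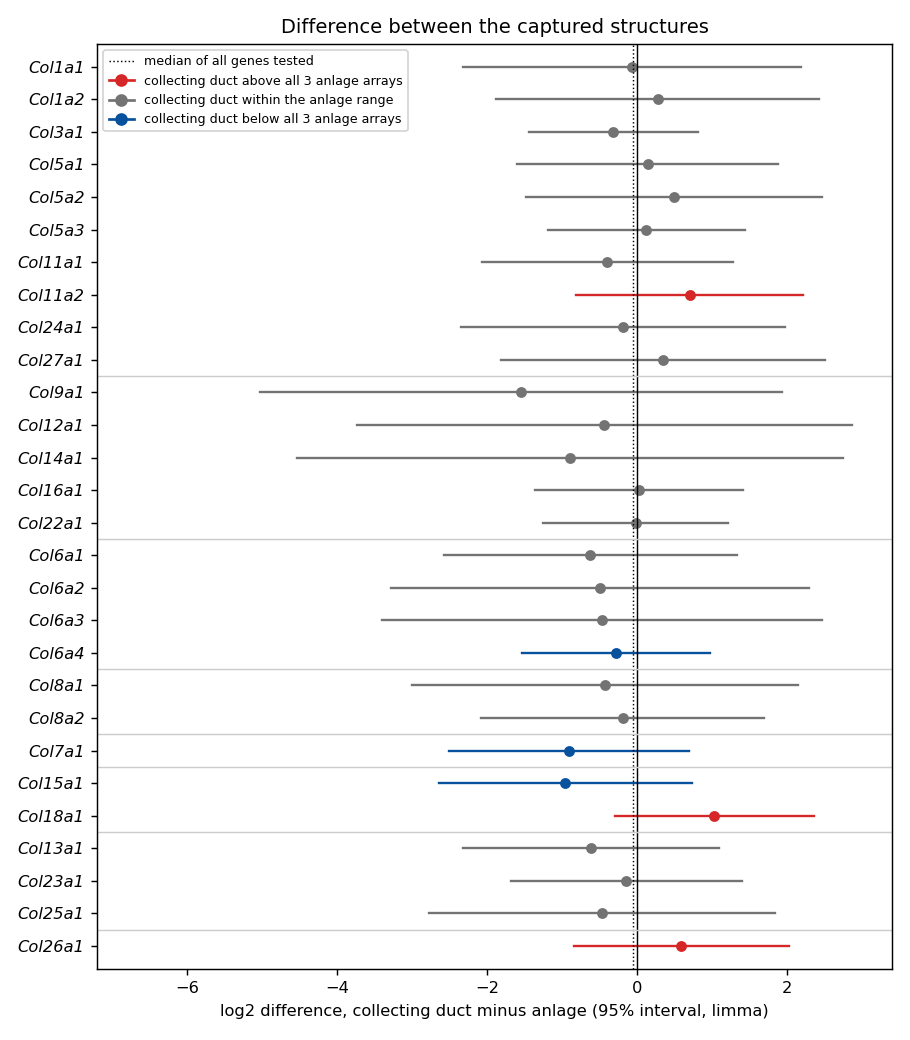
Collecting duct minus anlage difference of each tested collagen gene on the log2 scale (points) with its 95% interval from limma (lines); colour gives the place of the collecting duct array relative to the 3 anlage arrays, and the dotted line is the median of all genes tested, −0.06. Every interval contains 0, and the interval of Col18a1, −0.30 to 2.36, reaches least far below it.

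Collagen VI, whose chains Col6a1, Col6a2 and Col6a3 assemble into 1 heterotrimer, had negative differences for 4 of 4 tested genes, beside 54.9% of all genes, with a median difference of −0.48. Col6a3 stood at 12.45 in the collecting duct and at 11.26, 12.89 and 14.61 in the anlage arrays. Col6a2 stood at 11.88 in the collecting duct and at 10.94, 12.16 and 14.04 in the anlage arrays. Col6a1 stood at 11.18 in the collecting duct and at 11.02, 11.55 and 12.86 in the anlage arrays. By their brightest probe sets all 3 chains had 1 order of arrays. Anlage array 3 was highest, then anlage array 2, the collecting duct and anlage array 1. Their differences were −0.47 ± 1.20, −0.50 ± 1.14 and −0.63 ± 0.80 (SE). Those of Col6a2 and Col6a3 were positive, 0.33 and 0.37, without anlage array 3. Another probe set of Col6a2 above the filter had another order, at 10.49 in the collecting duct and 10.53, 10.22 and 11.39 in the anlage arrays. Col6a4, a separate type VI chain, lay in a narrow range, at 9.42 in the collecting duct and 9.77, 9.85 and 9.48 in the anlage arrays.

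Of the 28 genes, 3 fibril-associated collagens had the widest ranges among the anlage arrays. Col14a1, which binds fibrils in dense connective tissue, was 11.28 in the collecting duct and 10.15, 12.00 and 14.38 in the anlage arrays, an 18.7-fold range of signal + 109.6 within the anlage. Col9a1, a chain of collagen IX, was 8.51 in the collecting duct and 8.19, 9.82 and 12.19 in the anlage arrays, with an SD of 2.01 within the anlage. Col12a1 was 10.61 in the collecting duct and 8.98, 11.51 and 12.67 in the anlage arrays, a 12.9-fold range of signal + 109.6. Its other probe set above the filter had another order, at 9.82 in the collecting duct and 10.83, 8.75 and 10.08 in the anlage arrays. By their brightest probe sets all 3 followed the order of arrays seen for collagen VI. Their differences of −0.90 ± 1.49, −1.55 ± 1.42 and −0.44 ± 1.35 (SE) all had 95% intervals that contained 0. With 1 anlage array left out, that of Col9a1 lay between −2.66 and −0.50. Its other probe set above the filter had a positive difference, 0.42, with the collecting duct second to anlage array 3. Col14a1 had 1 such probe set as well, with a difference of 0.82, while another gave −0.94. Col16a1 and Col22a1 lay close together on all arrays, with differences of 0.02 ± 0.57 and −0.02 ± 0.51. Of the 5 tested genes of this class, 1 difference was positive and 4 were negative.

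Col18a1, whose C-terminal fragment is endostatin and which sits in epithelial and vascular basement membranes, had the largest positive difference among the tested genes. It stood at 14.27 in the collecting duct and at 13.84, 12.85 and 13.02 in the anlage arrays, so the collecting duct array was above all 3. This was 2.04-fold over the anlage mean of 13.24 ± 0.53 (SD, n = 3), and the log2 difference of 1.03 ± 0.54 (SE) had a 95% interval of −0.30 to 2.36 (limma, unadjusted p = 0.108, adjusted p = 0.9999). Its second probe set gave 13.88 in the collecting duct and 12.64, 12.52 and 12.67 in the anlage arrays, a difference of 1.27. With the mean of both probe sets the difference was 1.15 with an unadjusted p of 0.0333 in limma, and across the other settings it lay between 0.71 and 1.35, the last of these without anlage array 1 (unadjusted p = 0.0137 in limma). The smallest adjusted p over the alternatives, in limma, was 0.359.

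Col15a1, the other collagen of the same multiplexin class and a component of the zone under vascular and muscle basement membranes, ran the opposite way. It was 10.15 in the collecting duct and 11.90, 10.53 and 10.91 in the anlage arrays, below all 3, with a difference of −0.96 ± 0.69 (SE). Endothelial markers ran in the same direction, since 10 of 10 tested markers stood lower in the duct, beside 54.9% of all genes, and 7 of them (70%) below all 3 anlage arrays, beside 24.3%. The summed signal of the 12 endothelial markers was 7408 in the collecting duct and 12726, 22064 and 24124 in the anlage arrays, whereas Col15a1 was highest in anlage array 1, where that sum was lowest within the anlage. Their part in the value of Col15a1 was not tested. Col7a1, which forms the anchoring fibrils under stratified epithelia, was 9.35 in the collecting duct and 10.97, 10.03 and 9.77 in the anlage arrays, again below all 3, with a difference of −0.91 ± 0.65.

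The remaining classes showed no larger differences. Col8a2, a short-chain network collagen, was 12.00 in the collecting duct and 11.75, 11.60 and 13.25 in the anlage arrays, and its relative Col8a1 differed by −0.43 ± 1.05 (SE). The transmembrane collagens Col13a1, Col23a1 and Col25a1 differed by −0.62 ± 0.70, −0.15 ± 0.63 and −0.47 ± 0.94. Col25a1 stood at 11.86 in the collecting duct and at 10.92, 12.93 and 13.13 in the anlage arrays, within their range. Col26a1 was 10.16 in the collecting duct and 9.40, 10.10 and 9.22 in the anlage arrays, above all 3 by a small margin over anlage array 2.

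The 8 genes below the filter had mean log2 values of 7.03 to 8.09 and no test. They were Col2a1, Col6a5, Col9a2, Col9a3, Col10a1, Col17a1, Col19a1 and Col20a1. Col2a1, Col9a2, Col9a3 and Col10a1 are best known from cartilage. Col2a1 was 7.18 in the collecting duct and 7.22, 9.40 and 7.70 in the anlage arrays, with anlage array 2 the highest. Col17a1, the hemidesmosomal collagen of epithelia, was 8.53 in the collecting duct and 6.92, 7.10 and 8.04 in the anlage arrays, above all 3. Of 6 chondrocyte markers, 2 passed the filter, and the summed signal of the 6 was 1085 in the collecting duct and 1054, 2143 and 1902 in the anlage arrays.

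Spread among the anlage arrays was wider for the collagen genes than for most genes. The median SD over anlage arrays was 0.89 for the 28 genes and 0.46 for all genes tested, and 24 of the 28 (85.7%) lay above that second value. The range among anlage arrays passed 4-fold (2 on the log2 scale) for 12 of the 28 (42.9%), beside 10.5% of all genes. At the other end, Col22a1 and Col6a4 had SDs of 0.19. Wide spread was not particular to the collagens. Among lists described below, the median SD was 0.99 for fibril partners, 0.85 for collagen receptors, 0.84 for collagen breakdown and 0.73 for stroma. It was 0.955 for the loop of Henle markers and 0.90 for the collecting duct markers. Lower medians were those of procollagen processing and cross-linking (0.49), collagen IV (0.42) and chain modification and folding (0.32).

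**Figure D3:**
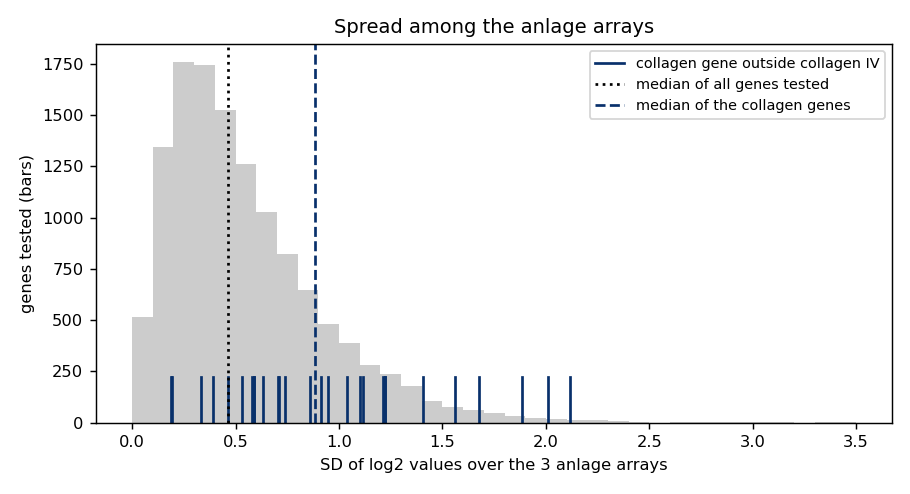
SD of log2 values over the 3 anlage arrays, as a histogram of all 12642 genes tested (bars, counts on the vertical axis) with a vertical tick for each of the 28 collagen genes. The median of the collagen genes (dashed, 0.89) lies right of the median of all genes (dotted, 0.46), and the ticks reach 2.12, the value of Col14a1.

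Anlage array 3 was the highest of the 4 arrays for 16 of the 28 collagen genes (57.1%), beside 21.9% of all genes tested, and anlage array 1 was the lowest for 17 (60.7%), beside 40.6%. The order anlage 3, anlage 2, collecting duct, anlage 1 held for 9 genes (Col3a1, Col6a1, Col6a2, Col6a3, Col9a1, Col12a1, Col14a1, Col23a1 and Col25a1), or 32.1%, beside 7.25% of all genes. The order anlage 3, collecting duct, anlage 2, anlage 1 held for 5 more (Col1a1, Col5a1, Col5a2, Col5a3 and Col16a1), or 17.9%, beside 3.38%. These orders are those of the brightest probe sets, and the split between them depends on that choice. Other probe sets above the filter gave the first order for Col1a1, Col5a1 and Col5a2, and the second for Col9a1 and Col23a1. As a median over the 28 genes, the value minus the gene's own mean over the arrays was −0.18 for the collecting duct, against −0.50, −0.0017 and 0.62 for anlage arrays 1, 2 and 3.

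Markers of interstitial stroma other than collagens moved with the collagens across arrays. Of 19 tested markers, 13 (68.4%) were highest in anlage array 3, beside 21.9% of all genes. The median deviation of the markers was −0.30 for the collecting duct, against −0.42, −0.14 and 0.66 for anlage arrays 1, 2 and 3. The summed signal of the 19 markers was 110363 in the collecting duct, against 97722, 110247 and 288761 in the anlage arrays. That of Col1a1 and Col3a1 together was 80551 in the collecting duct, against 73338, 80979 and 166127 in the anlage arrays. Both sums were thus highest in anlage array 3, with the collecting duct close to anlage arrays 1 and 2. The brightest probe set of Col3a1 carried most of the second sum, with 73388 of the 80551 in the collecting duct. The signal of the other Col3a1 probe set was 6463 in the collecting duct, against 2567, 7022 and 30573 in the anlage arrays. By that one the collecting duct was near anlage array 2 only. In anlage array 1, 3 of the 19 markers lay under the filter, Tagln at 7.54, Tbx18 at 7.84 and Lum at 8.12, and no other value of the list did. Foxd1, the transcription factor that marks renal stromal progenitors, was 13.75 in the collecting duct and 13.94, 12.84 and 13.38 in the anlage arrays and did not follow the collagens. The ureteric mesenchyme factor Tbx18 was 9.97 in the collecting duct and 7.84, 9.73 and 13.92 in the anlage arrays. Pdgfrb, a receptor of perivascular cells, was 11.43 in the collecting duct and 12.55, 13.20 and 12.97 in the anlage arrays, below all 3 (unadjusted p = 0.028, adjusted p = 0.9999 in limma). Acta2, smooth muscle actin, was 12.57 in the collecting duct and 13.33, 13.39 and 16.17 in the anlage arrays, also below all 3. The summed signal of 7 markers of smooth and striated muscle was 1413 in the collecting duct, against 28891, 1759 and 33897 in the anlage arrays, and few genes carried it. Actc1 and Tnnt2 were high in anlage arrays 1 and 3, Myh11 and Cnn1 in array 3, and Acta1 and Myl1 in array 1, while Des lay between 9.18 and 9.97 on all arrays. The part of stromal or muscle RNA in the collagen values was not tested.

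**Figure D4:**
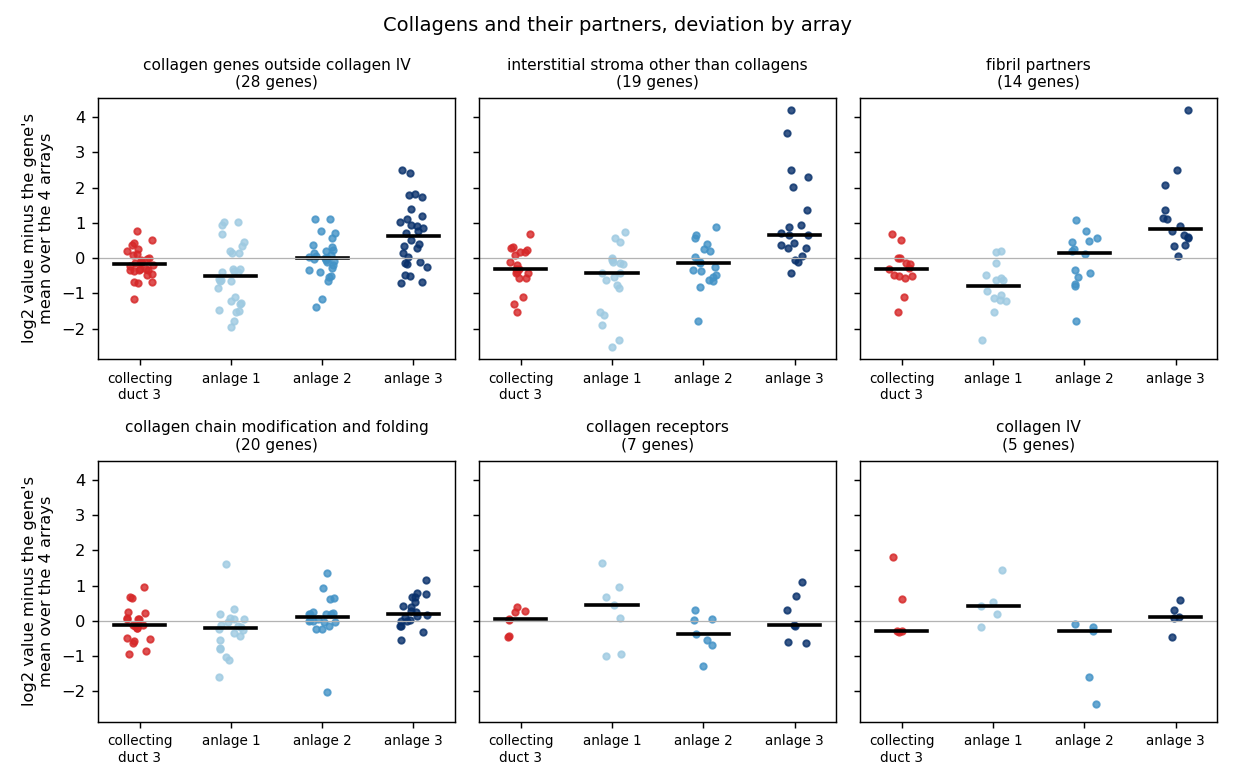
Log2 value minus the gene's own mean over the 4 arrays (vertical axis) for each tested gene of 6 lists, by array; points are genes and black bars are list medians. In the collagen, stroma and fibril partner panels the bar of anlage array 3 is the highest (0.62, 0.66 and 0.83), whereas in the collagen receptor panel it is −0.13 and in the collagen IV panel 0.11.

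Genes that work with the collagens were read from lists of their partners. Since limma called 0% of all genes, a count of 0 called says nothing particular to a list. Of 20 tested genes of chain modification and folding, 9 differences were positive and 11 negative, and 0 were called, with a median of −0.17. Fkbp14, a prolyl isomerase of the endoplasmic reticulum, was 11.45 in the collecting duct and 12.44, 12.60 and 13.05 in the anlage arrays (−1.25 ± 0.51, SE). Mia2 and Mia3, which help load procollagen into secretory carriers, differed by −1.16 ± 0.78 and 1.27 ± 1.27. P4ha1, a catalytic subunit of prolyl 4-hydroxylase, differed by 0.88 ± 0.73 and lay above all 3 anlage arrays. The median deviation of this list in anlage array 3 was 0.20, smaller than that of the collagens.

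Of 8 tested genes for procollagen processing and cross-linking, 3 differences were positive and 5 negative, and 0 were called. Pcolce, an enhancer of procollagen C-proteinase, differed by −0.81 ± 0.53 (SE), and the lysyl oxidases Loxl3, Lox and Loxl1 by −0.79 ± 0.74, −0.59 ± 1.15 and −0.44 ± 0.57. Lox, which starts the cross-links of fibrils, was 11.64 in the collecting duct and 10.69, 12.18 and 13.84 in the anlage arrays, the order of collagen VI.

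Fibril partners, among them small proteoglycans that coat fibrils, had negative differences for 12 of 14 tested genes (85.7%), beside 54.9% of all genes, with 0 called and a median difference of −0.41. Lum, which encodes lumican, was 8.92 in the collecting duct and 8.12, 10.10 and 14.66 in the anlage arrays, with the first of these under the filter. Its difference of −2.03 ± 2.28 (SE) was smaller than its error and lay between −3.64 and −0.18 with 1 anlage array left out. Thbs2 differed by −1.49 ± 1.18, Dcn (decorin) by −0.74 ± 1.51 and Postn (periostin) by 0.91 ± 1.06. Dcn, Lum and Postn stand in the stroma list as well, so the lists share 3 genes.

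Of 8 tested genes of collagen breakdown, 4 differences were positive and 4 negative, with 0 called. Anlage array 3 was the highest array for all 8, beside 21.9% of all genes. The metalloproteinase inhibitor Timp3 was 10.63 in the collecting duct and 12.00, 11.69 and 12.90 in the anlage arrays (−1.57 ± 0.64, SE; unadjusted p = 0.0509 and adjusted p = 0.9999 in limma). Without anlage array 2 the brightest probe set of Timp3 was chosen anew, and its difference was −0.28. The probe set shown above cannot give that value, since its duct value lay well over 1 below anlage arrays 1 and 3. With the probe sets of Timp3 averaged the difference was −0.34. Timp1 and Timp2 differed by −0.86 ± 0.55 and −0.43 ± 0.66, and Reck, a membrane-bound inhibitor, by 0.49 ± 0.95.

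Of 7 tested collagen receptors, 5 differences were positive and 2 negative, and 0 were called. Anlage array 3 was the highest for 2 (28.6%), beside 21.9% of all genes: Itga10, in the array order of collagen VI, and Ddr2, in that of Col1a1. The integrin subunits Itga1 and Itga10 differed by −0.60 ± 0.65 and −0.59 ± 0.85 (SE), the adhesion receptor Adgrg1 by 0.53 ± 0.64, and the collagen-activated kinase Ddr2 by 0.37 ± 0.76. Among the 5 tested collagen IV genes, Col4a4, a chain of mature basement membranes, was 11.68 in the collecting duct and 10.29, 7.51 and 9.97 in the anlage arrays (2.43 ± 1.13, unadjusted p = 0.0745 in limma). The 7.51 of anlage array 2 lay under the filter. Another Col4a4 probe set above the filter had that array highest, at 10.19 in the collecting duct and 7.92, 10.37 and 7.17 in the anlage arrays. By that probe set the collecting duct lay within the anlage range. The common chain Col4a1 was 14.75 in the collecting duct and 15.23, 14.87 and 15.35 in the anlage arrays.

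Probe sets of the same gene were compared for the 13 collagen genes with more than 1 probe set above 8.416. In 6 of them (Col1a2, Col5a1, Col9a1, Col14a1, Col23a1 and Col27a1) the probe sets disagreed in the sign of the difference. The second probe set of Col3a1 was 12.68 in the collecting duct and 11.39, 12.80 and 14.91 in the anlage arrays, a wider range than that of the brightest one but with a like difference of −0.35. For Col1a2 the probe sets ranked anlage array 2 differently: the brightest had it lowest at 13.41, and another, at 12.86 in the collecting duct and 11.57, 13.59 and 15.04 in the anlage arrays, had it second highest. Col25a1 had differences of −0.47 and −1.62, its second probe set being 8.19 in the collecting duct and 10.36, 9.60 and 9.49 in the anlage arrays. Anlage array 2 also had the highest Gapdh ratio, 54.1, and a beta-actin ratio of 6.4, near the 5.4 of anlage array 3. Whether transcript length affects these probe sets was not tested.

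**Figure D5:**
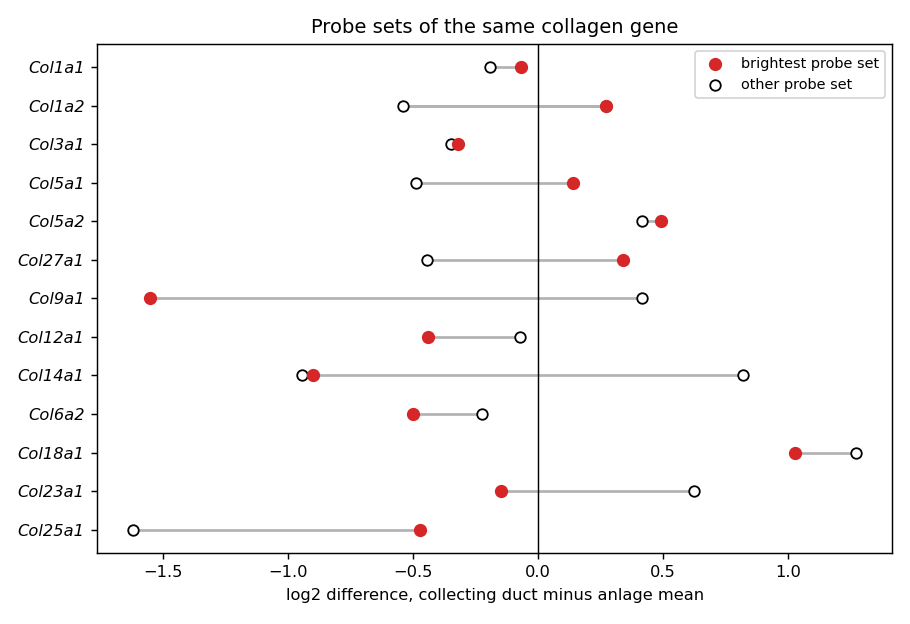
Collecting duct minus anlage mean on the log2 scale (horizontal axis) for each probe set above 8.416 of the 13 collagen genes that have more than 1; filled points are the brightest probe set of the gene, open points the others. Both probe sets of Col18a1 lie right of 0, at 1.03 and 1.27, and lines that cross 0 mark the 6 genes whose probe sets disagree in sign.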

How the data were processed

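The authors deposited a linear intensity for each probe set. GCOS is named in the submitters' processing notes, with version and algorithm not stated there. Trimmed by 2% at each end, every array averaged 1500. No build was named for the array, so probe set coordinates are not given. The arrays were quantile normalized, 109.6 (the 25th percentile) was added and log2 taken. After removal of 64 control probe sets, 34945 probe sets had 1 symbol. The probe set with the highest mean over 4 arrays stood for a gene, and a gene was tested if that mean reached 8.416, which is the 40th percentile over probe sets. limma 3.58.1 in R 4.3.3 (lmFit, and eBayes with an intensity trend) compared 1 collecting duct array with 3 anlage arrays over 12642 genes, two-sided, with Benjamini-Hochberg adjustment. The lone array was assumed to vary like the others. The fit had 2 residual and 4.04 prior degrees of freedom, and the number of arrays limits the precision. An exact permutation test of 1 against 3 cannot go below p = 0.25 and was not used. The fit was tested on simulated data.

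The members, lists and tests were chosen with earlier results of these data known. Named with values were Col1a1, Col1a2 and Col3a1, the 8 members with the brightest probe sets, members outside the anlage range with an absolute difference of at least 1, and up to 4 genes of each partner list with the largest absolute difference; other genes with values were named after these were seen. Alternatives changed normalization, offset, filter, probe set choice, trend and the arrays used. With an array left out, the normalization, filter and brightest probe set of each gene were taken anew from the arrays kept. Promoter windows are from RefSeq (GRCm38.p6).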

Additional observations from a re-analysis of the deposited data

How the results depend on the processing

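Over 11 alternatives, limma called 0 collagen genes outside collagen IV in each. Over all genes it called 0 in each alternative that kept anlage array 2, while leaving out 1 anlage array gave 0 to 14 called genes, the 14 without array 2. At an unadjusted p under 0.05, 4 of 28 collagen genes (14.3%: Col9a1, Col12a1, Col18a1 and Col25a1) passed without anlage array 1, beside 10.9% of all genes there. The number of collagen genes below all anlage arrays, 3, was 6 of 36 (16.7%) with no filter, which adds dim genes, beside 25.2% of all genes. It ranged from 3 to 15 with 1 anlage array left out. Without array 1 it was 15 (53.6%), beside 47.5% of all genes, and without array 3 it was 5 (17.9%), beside 28.5%. The median difference of the collagen genes ranged from −0.47 to 0.21 with 1 anlage array left out. Signs of small, uncalled differences turned. With arrays scaled to a common median Col1a2 was −0.12, Col5a1 −0.23 and Col16a1 −0.16, and the median of all genes moved to −0.24. With probe sets averaged per gene Col5a1 was −0.26 and Col27a1 −0.051. With the values as deposited Col22a1 was 0.19 and Col23a1 0.028. The cause was not tested.

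With 1 anlage array left out, the difference ranged from −0.51 to 0.61 for Col1a1, −0.41 to 0.80 for Col1a2, −0.50 to 0.017 for Col3a1, −0.17 to 0.62 for Col5a1, −0.053 to 0.95 for Col5a2, −0.060 to 0.28 for Col5a3, −0.19 to 0.96 for Col27a1, −1.57 to 0.37 for Col12a1, −1.98 to 0.20 for Col14a1, −0.18 to 0.22 for Col16a1, −0.11 to 0.079 for Col22a1, −1.26 to 0.33 for Col6a2, −1.32 to 0.37 for Col6a3, −0.48 to 0.33 for Col8a2 and −0.51 to 0.47 for Col23a1. It ranged from −1.42 to 0.21 for Lox, −1.69 to 0.40 for Dcn, −0.23 to 0.84 for Reck and −0.09 to 0.76 for Ddr2. Others kept their sign but moved by more than 1.5 times, as Lum (−3.64 to −0.18), Col9a1 (−2.66 to −0.50), Mia3 (0.41 to 2.27), Thbs2 (−2.37 to −0.63), Postn (0.28 to 1.68), Col8a1 (−1.31 to −0.12), Col25a1 (−1.22 to −0.068), Col6a1 (−1.07 to −0.10), Col13a1 (−1.11 to −0.29) and Timp3 (−1.76 to −0.28). Timp3 was also −0.34 with probe sets averaged per gene. Col8a1 did not pass the filter without anlage array 2, so its range covers only the runs without array 1 and without array 3. Its main value in anlage array 1, 7.25, was itself under the filter. With an array left out, the brightest probe set of each gene was chosen anew from the arrays kept, so a range can mix probe sets. This holds for the 0.47 of Col23a1 and the −0.28 of Timp3, both without anlage array 2, which came from another probe set than the main values. No paired analysis was possible because the groups share only 1 replicate number.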
